A study of Marchantia polymorpha with 6 samples.

Results

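On chromosome 4 of the liverwort Marchantia polymorpha, genes for the entry enzyme of phenylpropanoid synthesis and for chalcone synthases stand side by side. Among the genes counted, they form 1 unbroken run. The stretch described here holds every gene ID from Mp4g14000 to Mp4g14300, which is 29 of the 19472 genes counted, and 11 of the 29 form that run. The stretch was chosen because 5 of its genes, MpPAL7, MpPAL-like2, MpPKS/CHS13, MpPKS/CHS15 and MpPAL4, had been found lower with arsenite in these libraries. The arsenite differences below are therefore a description of what chose the stretch and are not independent evidence. Gene order and gene families did not enter the test that called these genes. Variation among replicates did, since a call depends on it. The stretch itself was drawn as a range of IDs around these 5 genes, all PAL or PKS/CHS. Order and family therefore entered its choice.

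Phenylalanine ammonia-lyase, PAL, removes the amino group of phenylalanine and so opens the phenylpropanoid pathway. Cinnamate 4-hydroxylase and 4-coumarate:CoA ligase then turn its product into coumaroyl-CoA, which chalcone synthase extends with malonyl units into the skeleton of the flavonoids. Chalcone synthase belongs to the type III polyketide synthases, and related enzymes of that family make bibenzyls in liverworts, including the bisbibenzyls stored in oil bodies. The symbols PKS/CHS name members of this family without saying which product each one makes.

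Poly(A) RNA of thalli, the flat plant body, was sequenced from plants of the genotype Cam1 grown at 21 °C on Gamborg plates at 0.5 strength. For 3 samples the medium held 2.5 µM sodium arsenite, labelled As(III), and 3 control samples came from the same medium without it. The labels do not say whether the samples of a group came from separate cultures, so the spread between them may be partly technical, and the time on arsenite is not given in the sources used here. Libraries held between 26579324 and 47532310 reads. Levels are given as CPM, reads per 1000000 reads on tested genes after TMM scaling. CPM is not corrected for gene length, so levels are compared between libraries for the same gene and not between genes.

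Along the chromosome the run reads MpPKS/CHS10, MpPAL7, MpPKS/CHS11, MpPAL6, MpPKS/CHS12, MpPAL-like2, MpPKS/CHS13, MpPKS/CHS14, MpPKS/CHS15, MpPAL4 and MpPKS/CHS16. It holds 4 PAL and 7 PKS/CHS genes, no 2 PAL genes are next to each other, and a PKS/CHS gene stands at both ends. The stretch before the run holds 10 genes and the stretch after it 8, of which only MpPOD47, a class III peroxidase by its symbol, carries a name. All 29 genes were found in RefSeq's gene table for MpTak2_v7.1, in the order of their IDs, and 0 of the neighbouring spans overlapped. The IDs skip some numbers inside the run. Whether genes absent from the counts lie there was not checked, so neighbours are neighbours among the genes counted.

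With arsenite, 9 consecutive genes of the run, from MpPAL7 to MpPAL4, had levels below every control library, while the genes at both ends of the run did not separate the groups. Such a downward separation was found in 14.4% of all tested genes. Of 28 tested genes of the stretch, 6 passed as lower and 0 as higher at an adjusted p of 0.05 in edgeR (quasi-likelihood, Benjamini-Hochberg over all 13544 tested genes). Over all tested genes, 2.14% passed as lower and 2.04% as higher. Because the stretch was chosen on this contrast, nothing is read from these comparisons. The 6 genes were MpPAL7, MpPKS/CHS11, MpPAL-like2, MpPKS/CHS13, MpPKS/CHS15 and MpPAL4. With voom, at a background of 1.93% lower and 1.99% higher, 5 were lower, all but MpPKS/CHS11. The count was 6 without arsenite replicate 3, when 461 genes passed in either direction over all tested. It was 3 without arsenite replicate 1, when 338 passed. Without control replicate 1, 2 or 3 it was 2 each time, when 103, 176 and 148 passed. Without arsenite replicate 2 it was 0, when 39 passed over all tested. In that last run, 9 genes of the stretch were lower at an unadjusted p under 0.05, against 960 of 13710 over all tested genes. In these 6 runs with a library left out and in the 8 other alternatives, the log2 fold changes of all 11 genes of the run were negative.

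MpPAL7 (Mp4g14110) had 20.3, 36.0 and 24.5 CPM in control replicates 1, 2 and 3, and 8.71, 8.90 and 11.6 CPM in arsenite replicates 1, 2 and 3. The lowest control lay above the highest arsenite library. The means were 27.0 ± 8.13 and 9.74 ± 1.62 CPM (SD, n = 3 each), at a log2 change of -1.47 ± 0.24 (SE, adjusted p = 0.0259 in edgeR's test).

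MpPAL-like2 (Mp4g14160), the PAL gene of the run with the most reads, had 182, 264 and 176 CPM in the controls and 86.0, 68.6 and 68.8 CPM with arsenite. The groups did not overlap, and control replicate 2 stood above the other two controls. Arsenite over control, its log2 change was -1.48 ± 0.19 (SE, adjusted p = 0.0130 in edgeR's test). It passed in 11 of 14 alternatives, the exceptions being the stricter threshold of 0.01, the run without arsenite replicate 2 and the run without both libraries numbered 2.

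MpPAL4 (Mp4g14210), the last PAL gene of the run, had 36.5, 50.3 and 38.6 CPM in the controls and 18.9, 21.3 and 24.1 CPM with arsenite. Again all arsenite libraries lay below all controls. Arsenite over control, its log2 change was -0.96 ± 0.16 (SE, adjusted p = 0.0278 in edgeR's test), a smaller difference than those of MpPAL7 and MpPAL-like2, although these differences were not tested against each other.

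MpPAL6 (Mp4g14140) had few reads, between 75 and 451 per library. It stood at 5.99, 17.2 and 8.56 CPM in the controls and at 2.39, 3.52 and 5.19 CPM with arsenite. The groups did not overlap, but the controls ranged over more CPM than separated the group means. Its log2 fold change of -1.52 ± 0.45 (SE) was the most negative of the stretch and did not pass (adjusted p = 0.115 in edgeR's test), while it passed with DESeq2 and in no other alternative.

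**Figure D1:**
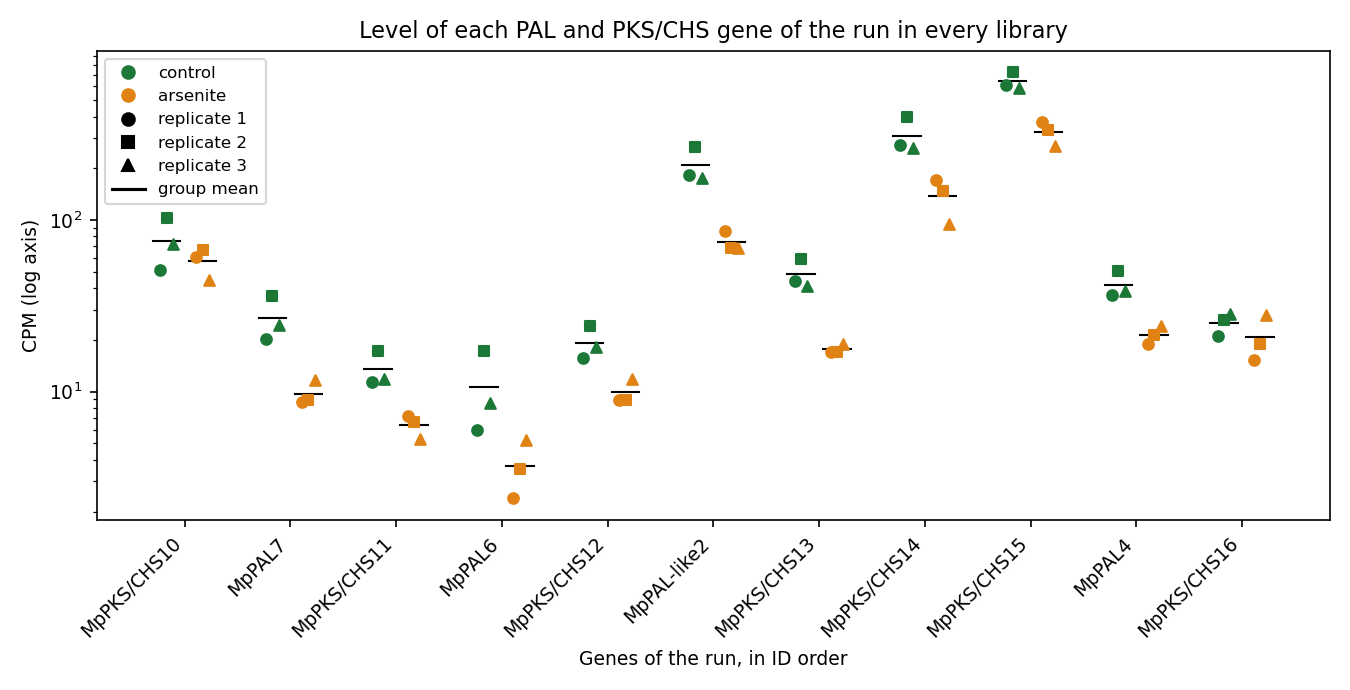
Level of each gene of the run in every library, as CPM on a log axis, with genes in ID order, controls in green, arsenite libraries in orange, a marker shape for each replicate and black lines at the group means. From MpPAL7 to MpPAL4 all arsenite points lie below all control points, while they overlap at MpPKS/CHS10 and MpPKS/CHS16, and control replicate 2 is the highest control in 10 of the 11 genes.

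Among the polyketide synthase genes of the run, MpPKS/CHS13 (Mp4g14180) had the most even levels with arsenite relative to its mean, 16.9, 17.1 and 18.9 CPM, against 44.1, 59.0 and 41.4 CPM in the controls. The log2 change was -1.45 ± 0.16 (SE, adjusted p = 0.00888 in edgeR's test). It was the 1 gene of the stretch that still passed at a threshold of 0.01, and it passed in 12 of 14 alternatives.

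MpPKS/CHS15 (Mp4g14200) took 45.5% ± 2.97 of the reads on the run in controls and 47.3% ± 1.02 with arsenite (SD, n = 3 each). It had 612, 726 and 585 CPM in the controls and 370, 332 and 269 CPM with arsenite, at a log2 change of -0.99 ± 0.16 (SE, adjusted p = 0.0237 in edgeR's test). The share of the run's reads on this gene thus moved by less than the spread of the controls while its level differed between groups.

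MpPKS/CHS11 (Mp4g14120) had 11.4, 17.2 and 11.9 CPM in the controls and 7.24, 6.63 and 5.30 CPM with arsenite. At a log2 change of -1.07 ± 0.22 (SE, adjusted p = 0.0446 in edgeR's test) it was the gene nearest to the threshold among those that passed, and it passed in 4 of 14 alternatives.

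MpPKS/CHS12 (Mp4g14150) and MpPKS/CHS14 (Mp4g14190) lay just outside the threshold, both with an adjusted p of 0.0533 in edgeR's test. MpPKS/CHS12 had 15.6, 24.0 and 18.2 CPM in the controls and 8.90, 8.94 and 11.9 CPM with arsenite, a log2 fold change of -0.95 ± 0.21 (SE). MpPKS/CHS14 had 273, 395 and 261 CPM in the controls and 171, 147 and 94.2 CPM with arsenite, a log2 fold change of -1.17 ± 0.26 (SE). In both genes the groups did not overlap, and both passed in 4 of 14 alternatives. Over all tested genes, groups did not overlap downward in 14.4%, against 9 of the 11 genes of the run, which were chosen for it in part.

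The 2 outermost genes of the run differed less. MpPKS/CHS10 (Mp4g14100) had 50.9, 103 and 72.1 CPM in the controls and 60.7, 66.8 and 44.9 CPM with arsenite. MpPKS/CHS16 (Mp4g14220) had 21.2, 26.1 and 28.4 CPM in the controls and 15.3, 19.0 and 27.8 CPM with arsenite. The groups overlapped in both, with log2 fold changes of -0.39 ± 0.27 and -0.29 ± 0.23 (SE), and neither passed in edgeR's test, DESeq2 or voom. Whether they differ in response from their neighbours inside the run was not tested.

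**Figure D2:**
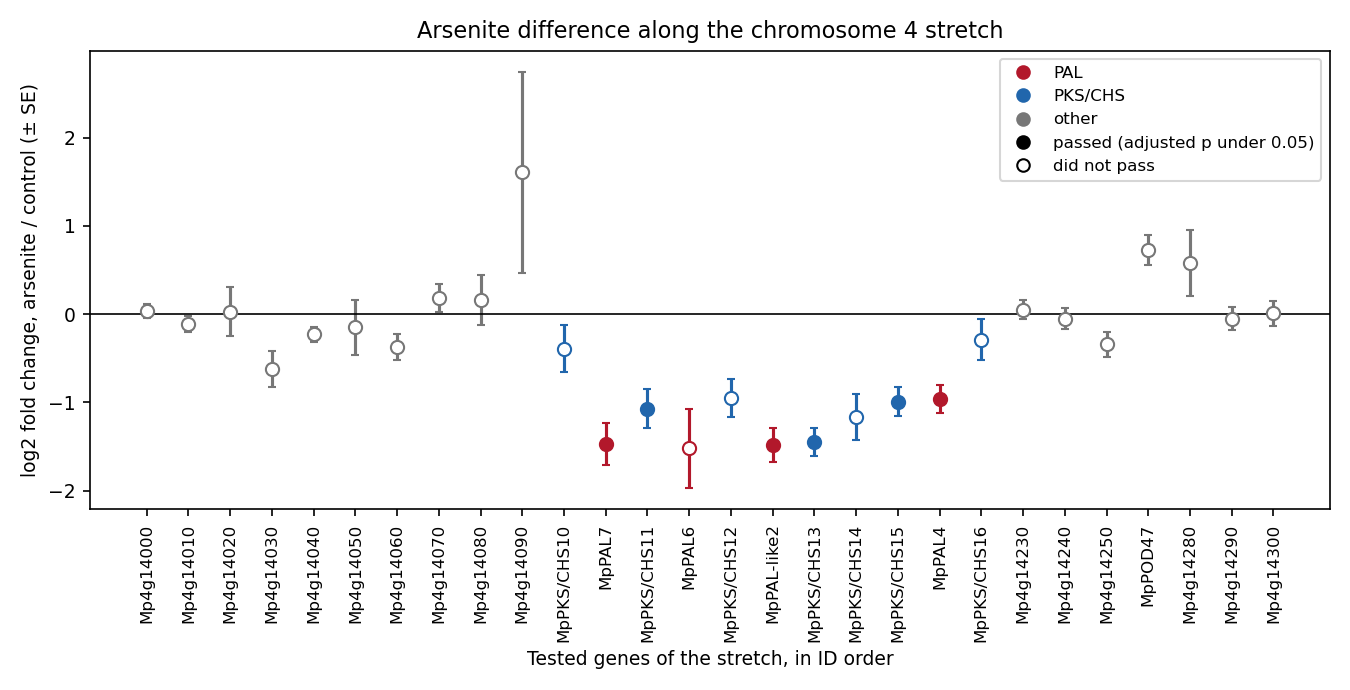
Log2 fold change, arsenite over control, with SE for the 28 tested genes of the stretch in ID order; PAL genes in red, PKS/CHS genes in blue, others in grey, and filled points passed at an adjusted p of 0.05 in edgeR's test. Values from -1.52 to -0.95 fill the 9 places from MpPAL7 to MpPAL4, and values nearer to 0 lie on both sides except for the sparsely read Mp4g14090.

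In ID order the first gene that passed as lower was MpPAL7, place 12 of 29, and the last was MpPAL4, place 20. The same 2 places marked the limits with DESeq2, with voom, with library totals as the only scaling, with both other filters, with the replicate number as a block and without arsenite replicate 3. Without arsenite replicate 2 no gene was called, so there was no such interval. With another library left out it was shorter, from MpPAL-like2 at place 16 to MpPKS/CHS13 at place 17 without any 1 control replicate, and to MpPKS/CHS15 at place 19 without arsenite replicate 1. DESeq2, at a background of 5.48% lower and 6.32% higher over all tested genes, called all 9 genes from MpPAL7 to MpPAL4.

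On the outer sides no gene next to the run was called. Of 17 tested flanking genes, 0 passed in edgeR's test, 4 were lower and 1 was higher at an unadjusted p under 0.05 (10.3% and 10.8% over all tested genes), and their median log2 fold change was 0.01, against -0.004 over all tested genes. Immediately before the run, Mp4g14090 had between 4 and 92 reads per library. It stood at 2.94 and 2.20 CPM in arsenite replicates 1 and 2 and at 1.57 CPM in control replicate 2, while the 3 other libraries had 0.125 to 0.192 CPM. Its log2 fold change of 1.61 ± 1.14 (SE) carried the widest error of the stretch. Next to it, Mp4g14080 had 40.1, 45.3 and 39.2 CPM in the controls and 37.8, 32.0 and 69.1 CPM with arsenite, the last in replicate 3.

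Immediately after the run, Mp4g14230 had 21.0, 21.6 and 19.6 CPM in the controls and 22.9, 19.9 and 21.6 CPM with arsenite. Its groups overlapped, with a log2 fold change of 0.05 ± 0.11 (SE). Mp4g14240 followed with 76.0 ± 4.40 and 73.3 ± 9.90 CPM (SD, n = 3 each) and a log2 fold change of -0.05 ± 0.12 (SE). From MpPAL4 over MpPKS/CHS16 to Mp4g14230 the log2 fold change thus went from -0.96 to -0.29 to 0.05 within 3 genes. Over the 14 alternatives, the value of MpPKS/CHS16 ran from -0.55 to -0.08 and that of MpPAL4 from -1.04 to -0.81.

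Farther out, before the run, Mp4g14030, Mp4g14040 and Mp4g14060 were below all controls in every arsenite library without passing, with log2 fold changes of -0.62 ± 0.20, -0.23 ± 0.08 and -0.37 ± 0.15 (SE). Mp4g14000 and Mp4g14070 had 0.04 ± 0.08 and 0.18 ± 0.16, Mp4g14010 had -0.11 ± 0.09, and the sparsely read Mp4g14020 and Mp4g14050 had 0.03 ± 0.28 and -0.15 ± 0.31. After the run, Mp4g14250 had -0.34 ± 0.14, Mp4g14280 had 0.58 ± 0.37, Mp4g14290 had -0.05 ± 0.13 and Mp4g14300, the flanking gene with the most reads, had 0.01 ± 0.14. Mp4g14260 had 0 to 4 reads per library and was not tested. Of the 17 tested flanking genes, 4 had groups that did not overlap downward, Mp4g14250 among them. In 3, Mp4g14000, Mp4g14070 and MpPOD47, the groups did not overlap upward. Over all tested genes these shares were 14.4% and 13.8%.

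MpPOD47 (Mp4g14270) went the other way. It had 32.3, 39.5 and 39.9 CPM in the controls and 76.0, 56.4 and 52.3 CPM with arsenite, so that all arsenite libraries lay above all controls. Arsenite over control, its log2 change was 0.73 ± 0.17 (SE, adjusted p = 0.0638 in edgeR's test). It passed with DESeq2 and without arsenite replicate 3 and in no other of 14 alternatives.

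Beyond the limits of the stretch, the next genes on each side had log2 fold changes of -0.26 ± 0.18 (Mp4g13990) and 0.52 ± 0.39 (Mp4g14310). Among the 50 IDs after the stretch, 33 were tested and 0 passed in edgeR's test. Among the 50 before it, 28 were tested and 1 passed, the cytochrome P450 gene MpCYP829-like29 (Mp4g13700), which lies 41 IDs before the run. It had 8.36, 4.05 and 9.91 CPM in the controls and 0.160, 0.406 and 0.461 CPM with arsenite. It was lowest among the controls in replicate 2, as were 36.6% of all tested genes and 0 genes of the run.

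Paralogs of this kind can share reads, and how reads with several placements were counted is not given in the sources used here. A sum over the copies does not depend on how reads were split among them. Over the 4 PAL genes of the run the summed level was 245, 367 and 248 CPM in the controls and 116, 102 and 110 CPM with arsenite, a log2 ratio of -1.39. Over the 7 PKS/CHS genes it was 1028, 1350 and 1018 CPM in the controls and 650, 598 and 472 CPM with arsenite, a log2 ratio of -0.98. Neither sum overlapped between groups. Reads that belong to copies elsewhere in the genome could still enter these sums. If reads with several placements were left uncounted, they would be missing from the sums too.

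Within the control group, variation between replicates was shared along the run. In control replicate 2, 11 of the 11 genes lay above their control mean, by a median of 0.37 log2 units, and 10 of them had their highest control level there. Over all tested genes control replicate 2 was the highest control in 38.2%, and the median deviation was 0.01. It was the highest control for 10 of the 17 flanking genes, with a median deviation of 0.06, and for 9 of 24 tested PAL and PKS/CHS genes elsewhere, with a median of 0.07. The excess of control replicate 2 over the mean of the other two controls ran from 1.05-fold in MpPKS/CHS16 and 1.21-fold in MpPKS/CHS15 to 2.37-fold in MpPAL6.

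With arsenite the run did not vary as 1 block. For 6 genes, MpPAL7, MpPAL6, MpPKS/CHS12, MpPKS/CHS13, MpPAL4 and MpPKS/CHS16, replicate 3 was the highest arsenite library, at 1.12 to 2.17 times the level of replicate 1. For 4 genes, MpPKS/CHS10, MpPKS/CHS11, MpPKS/CHS14 and MpPKS/CHS15, it was the lowest, at 0.550 to 0.739 times the level of replicate 1. Over all tested genes, replicate 3 was the highest arsenite library in 34.8% and the lowest in 39.2%. The remaining gene of the run, MpPAL-like2, was highest in replicate 1 and nearly equal in replicates 2 and 3. These sets were formed after the values had been seen, and they interleave along the chromosome. All of the second set are PKS/CHS genes, and the first holds 3 of the 4 PAL genes.

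**Figure D3:**
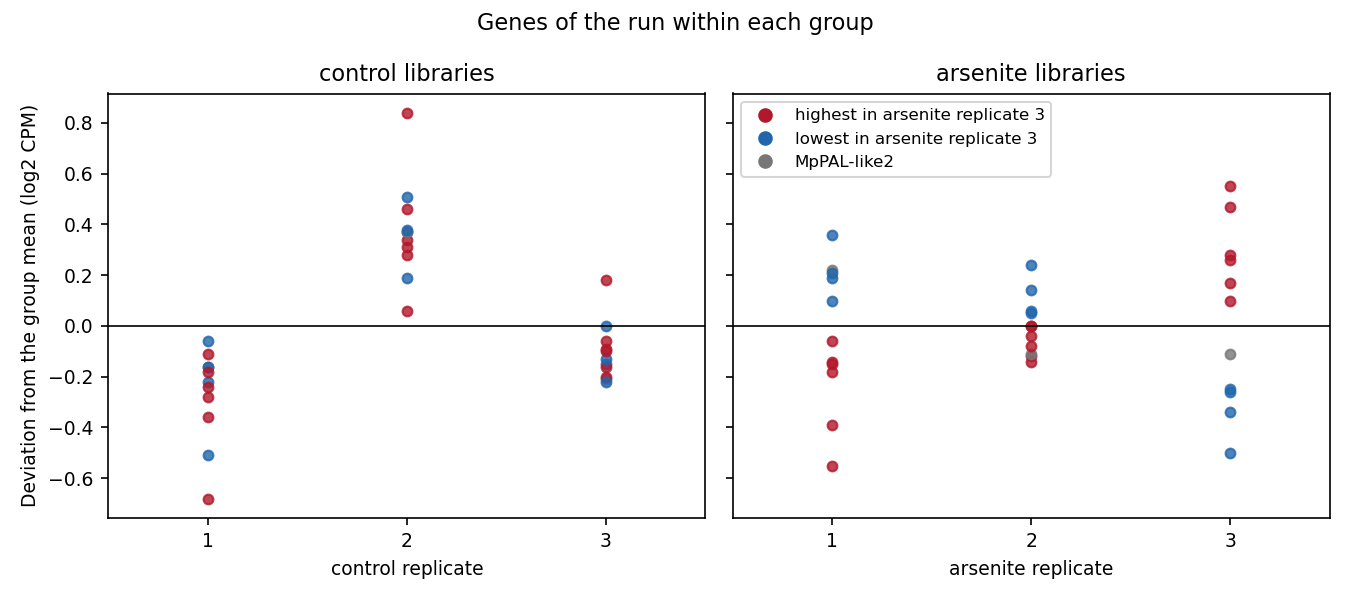
Deviation of each gene of the run from its group mean, in log2 CPM, by replicate, for controls on the left and arsenite libraries on the right; red points are the 6 genes highest in arsenite replicate 3, blue points the 4 genes lowest there, and grey points MpPAL-like2. All 11 points of control replicate 2 lie above 0, while in arsenite replicate 3 red and blue points lie on opposite sides of 0.

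Over all 6 libraries, log2 CPM of the genes of the run was positively correlated in all 55 pairs, with a median Pearson's r of 0.87, against a median of 0.02 in 136 pairs of flanking genes. These values contain the arsenite difference that chose the stretch. Taken as deviations from the group means, which removes that difference, r was positive in 45 of 55 pairs of the run with a median of 0.51, against 83 of 136 pairs and a median of 0.22 among the flanking genes. The 6 libraries leave 4 independent deviations, and all points share the same libraries and scaling, so these correlations are a description. The median within the run rested on control replicate 2, since it was -0.31 without that library, and it rose to 0.85 without arsenite replicate 3.

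Gene pairs with nearly the same deviations were not always neighbours. MpPKS/CHS14 and MpPKS/CHS15, which are adjacent, had r = 0.99 over the deviations, and MpPAL6 and MpPKS/CHS12, also adjacent, had r = 0.95. MpPAL7 and MpPKS/CHS12, and likewise MpPAL6 and MpPAL4, are not adjacent and had r = 0.99. MpPKS/CHS15 and its other neighbour MpPAL4 had r = -0.03. The 10 pairs of next neighbours had a median of 0.49, close to the 0.51 of all 55 pairs. The genes highest in arsenite replicate 3 had a median of 0.88 among themselves, the genes lowest there 0.91, and pairs across these sets 0.19. Since the sets were formed from one of these same deviations, this division follows in part from how they were formed. Against the flanking genes the first set had a median of -0.05 and the second 0.54. Replicate 3 was the lowest arsenite library for 10 of the 17 flanking genes and for 39.2% of all tested genes. Its part in these medians was not tested.

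**Figure D4:**
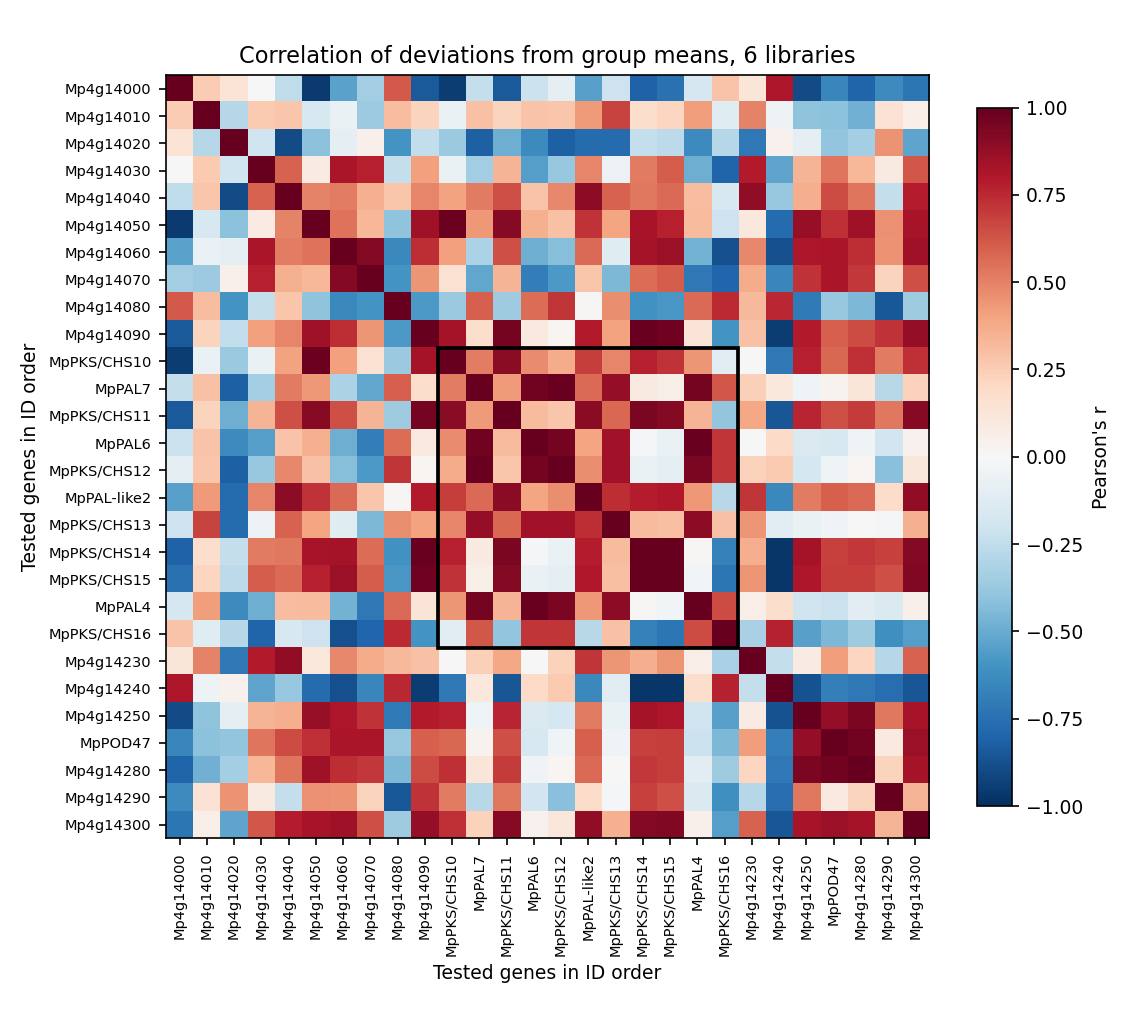
Pearson's r between the 28 tested genes of the stretch, in ID order on both axes, over deviations of log2 CPM from the group means in 6 libraries; red is positive, blue negative, and the black square encloses the run. Inside the square dark red cells form an interleaved pattern of 2 sets of genes, and MpPKS/CHS14 and MpPKS/CHS15 are also red against many flanking genes.

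The rule for naming genes of like pattern compared 13516 tested genes outside the stretch with the mean log2 CPM profile of the 5 genes that chose it. The 5 most alike over the 6 libraries were MpMTPSL3, a terpene synthase gene by its symbol, and Mp3g23860, Mp8g01310, Mp5g21590 and Mp8g11030, which have no symbol, with r from 0.994 to 0.998. MpMTPSL3 (Mp4g04780) had 19, 21 and 12 reads in the controls and 0 in each arsenite library. Mp3g23860 had 246, 329 and 265 CPM in the controls and 158, 151 and 154 CPM with arsenite. All 5 were highest among the controls in replicate 2, as the profile they were matched to was.

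The run held 4 of the 11 tested PAL genes and 7 of the 24 tested PKS/CHS genes. Of all reads on PAL genes, 14.8% ± 2.34 lay on the run in controls and 12.4% ± 1.31 with arsenite (SD, n = 3 each), shares that overlapped between groups. Most other PAL reads were on MpPAL8 (Mp4g10060), which lies elsewhere on chromosome 4 and had 1331, 1556 and 1417 CPM in the controls and 720, 544 and 482 CPM with arsenite. Of all reads on PKS/CHS genes, 45.6, 54.4 and 48.2% lay on the run in control replicates 1, 2 and 3, and 39.0, 39.2 and 32.2% in arsenite replicates 1, 2 and 3. That share was lower in every arsenite library than in every control. In controls, 84.1% ± 1.74 of the PKS/CHS reads of the run were on MpPKS/CHS14 and MpPKS/CHS15 (SD, n = 3). Since MpPKS/CHS15 is among the genes that chose the stretch, the lower share follows in part from that choice.

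Outside the stretch, 1 of 7 tested PAL genes passed as lower, MpPAL8, and 0 passed as higher, with a median log2 fold change of -0.44 over the 7. MpPAL1, with the next most reads among them, averaged 82.5 ± 5.42 CPM without arsenite and 92.7 ± 16.2 CPM with it. Of 17 tested PKS/CHS genes, 0 passed in edgeR's test or voom, 5 were lower and 1 was higher at an unadjusted p under 0.05, DESeq2 called 3 lower and 1 higher, and their median was -0.27. Over all tested genes, edgeR's test passed 2.14% as lower and 2.04% as higher, and DESeq2 called 5.48% and 6.32%. The median log2 fold change over the 11 genes of the run was -1.07, a value that its choice fixed in part. MpPKS/CHS-like3 and MpPKS/CHS23, with the most reads among PKS/CHS genes elsewhere, had 210 ± 26.1 and 216 ± 38.2 CPM in the control group, against 170 ± 33.2 and 155 ± 8.25 CPM in the arsenite group (SD, n = 3 each).

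PAL and PKS/CHS genes also lie close together at 2 other places, where no gene passed in edgeR's test or voom, while DESeq2 called MpPKS/CHS20 and MpPKS/CHS23 lower. On chromosome 7, MpPAL3, MpPKS/CHS20, MpPKS/CHS21 and MpPKS/CHS23 had log2 fold changes of -0.49, -0.61, -0.27 and -0.48, and MpPKS/CHS22 had too few reads to be tested. Elsewhere on chromosome 4, MpPKS/CHS8 and MpPAL2 had -0.33 and -1.22, the latter on 1.40 ± 0.868 to 3.31 ± 1.49 CPM. MpPKS/CHS17, the PKS/CHS gene next after the run on the chromosome, varied widely, with 127, 39.3 and 95.6 CPM in the controls and 24.1, 44.2 and 80.0 CPM with arsenite.

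The steps around these enzymes did not share 1 direction. Over all tested genes, 2.14% passed as lower and 2.04% as higher in edgeR's test, and 5.48% and 6.32% with DESeq2. Of 3 cinnamate 4-hydroxylases 1 passed as higher, MpC4H2, with 18.4 ± 0.230 CPM in the control group against 28.2 ± 1.95 CPM in the arsenite group (SD, n = 3 each), at a log2 change of 0.61 ± 0.11. MpC4H1 had 549 ± 35.5 and 401 ± 26.2 CPM with a log2 fold change of -0.45 ± 0.11 that did not pass in edgeR's test or voom and passed with DESeq2. Of 2 tested 4-coumarate:CoA ligases 0 passed, with 0.06 ± 0.15 for Mp4CL1 and 0.13 ± 0.19 for Mp4CL2 (edgeR), and neither passed with DESeq2. Of 27 genes of later flavonoid steps by symbol, 2 passed as lower and 0 as higher in edgeR's test, MpDFR-like18 at -0.89 and MpDFR-like19 at -0.77, and the median over the 27 was -0.21. DESeq2 called 4 lower and 2 higher, the latter MpDFR-like2 at 0.37 and MpDFR-like15 at 0.51. The chalcone isomerase MpCHI had 25.3 ± 1.09 and 20.5 ± 4.55 CPM and did not pass. None of 3 genes of side branches, MpHCT, MpC3H and MpCOMT, passed with edgeR or DESeq2, and their log2 fold changes ran from 0.11 to 0.35.

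Among 9 tested regulators, 0 passed in edgeR's test. MpR2R3-MYB14, a factor known to raise phenylpropanoid pigment genes in this liverwort, had 14.5, 7.87 and 10.0 CPM in the controls and 4.98, 5.72 and 6.46 CPM with arsenite, with a log2 fold change of -0.92 ± 0.25 (SE) that passed with DESeq2 and not with edgeR or voom. Its control replicate 2 was the lowest of the controls, as in 36.6% of all tested genes but in no gene of the run. MpR2R3-MYB2, also named MpMYB02 and known from bisbibenzyl synthesis, had 5.97 ± 1.21 and 3.84 ± 1.45 CPM. MpRUP, a repressor of ultraviolet signalling, had 30.9 ± 6.55 and 54.5 ± 6.22 CPM. Its log2 change of 0.82 ± 0.18 had an adjusted p of 0.0524 in edgeR's test, and it passed with DESeq2 and voom.

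Of 6 markers of oil body cells, which store bisbibenzyls, 2 passed as lower in edgeR's test and all 6 had negative log2 fold changes. Over all 13544 tested genes, 2.14% passed as lower and 6844 had negative values. MpR2R3-MYB2 is also in this list. Those that passed were MpSYP12B at -1.41 and MpABCG1 at -1.18. DESeq2, at a background of 5.48% lower, called these 2 and MpERF13 (log2 fold change -1.08 in edgeR). None of the 6 markers was at 0. Their summed level ran from 525 to 602 CPM in controls and from 440 to 467 CPM with arsenite. Most of this sum was MpBZIP8, with 472 ± 24.4 CPM in the control group against 392 ± 12.0 CPM in the arsenite group (SD, n = 3 each) at a log2 change of -0.27. The part of these markers in the lower levels of the run was not tested, and in such bulk samples fewer cells of a type and less RNA per cell cannot be told apart. Rhizoid markers summed to 573 to 713 CPM in controls and 729 to 934 CPM with arsenite. In edgeR's test 1 of 3 passed as higher, against 2.04% of all tested genes. DESeq2, at a background of 6.32% higher, also called MpBHLH14. The 2 markers of gemma cups and gemmae summed to 34.5 to 41.1 and 33.5 to 58.5 CPM, with 0 passed in edgeR's test or DESeq2. The 2 tested markers of male reproductive organs, of 3 matched, summed to 3.25 to 5.80 CPM in controls and 1.39 to 1.84 CPM with arsenite, with 1 passed as lower in edgeR's test.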

How the data were processed

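Deposited values were whole-number read counts per gene, 1 headerless file per sample, which the authors made with htseq-count on Galaxy, per the file names. The sources used here name no aligner, version, build, annotation or strand setting. Groups came from the titles. Symbols came from a MpTak2_v7.1 table by locus tag number (17671 of 18391 tags matched), and its coordinates served only for gene order and overlap of neighbouring genes. R 4.3.3 with edgeR 4.0.16 (TMM, default low-count filter by group, quasi-likelihood test, Benjamini-Hochberg over 13544 genes) was the main analysis, with DESeq2 1.42.0 and limma 3.58.1 (voom) as alternatives. For correlations, a prior count of 2 was added before log2 CPM. The procedure was tested on simulated data. No 2 replicates differed by as little as sampling noise (lowest chi-square per degree of freedom 41.4).

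The members and gene lists were chosen with earlier results of these data known. Values per library are given for the 5 genes that chose the stretch, all genes of the run, members that passed and their neighbours, with the nearest called gene on each side, the 5 genes of most similar profile, and in each list those that passed and those with most reads; further pathway and regulator genes were named after their values were seen. Lists were symbol patterns; MpDFR-like and MpLAR-like genes counted as later flavonoid steps, and MpSPL genes were among the regulators. Markers of oil body cells, rhizoids, gemma cups and male organs were matched by symbol or synonym.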

Additional observations from a re-analysis of the deposited data

How the results depend on the processing

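The 11 genes of the run had negative log2 fold changes under all 14 alternatives. Of the 391 values of single genes under alternatives, 35 lost a call, 11 gained one, and none changed sign with a call. The 6 lower calls of the stretch became 0 to 6 with 1 library left out and 1 at a threshold of 0.01, and the 0 higher calls became 0 to 1, and 1 with DESeq2 (MpPOD47). Calls over all genes, 566 in the main analysis, were 1598 with DESeq2, 57 at 0.01 and 39 to 461 with 1 library left out. The first called place moved between 12 and 16 and the last between 17 and 20 with 1 library left out, and both were 17 at 0.01. Fewer samples enter each such run. Leaving out both libraries numbered 2, whose file names carry an extra tag, was chosen after seeing the data: edgeR then made 0 calls, with 8 genes of the stretch lower and 1 higher at an unadjusted p under 0.05 (780 and 985 over all genes), a log2 ratio of summed CPM of -1.13 for the 3 PAL genes that chose the stretch, against -1.39, and a median r over deviations of -0.26. That median ran from -0.31 (without control replicate 2) to 0.85 with 1 library left out, against 0.51. The titles number the replicates without saying whether the numbers pair the samples. Same-numbered deviations correlated at 0.01, -0.11 and 0.19, and differently numbered ones at -0.45 to 0.41. With 3 libraries per group these values cannot decide it. With the replicate number as a block, 6 genes of the stretch were lower, MpPKS/CHS14 in place of MpPKS/CHS11, and 364 passed over all genes. The lowest depth in the run was that of MpPAL6, with 75 reads in 1 library. A comparison of member sequences was not run.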
